A study of Mus musculus with 13 samples.

Results

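Spleen was set against bone marrow of the same animal in the NSG mice of a barcode-sequencing study of MLL-AF9 leukaemia. The comparison used 6 of the 13 libraries, 1 bone marrow and 1 spleen from each of mouse 4, mouse 5 and mouse 6, all labelled as taken at disease. Barcodes entered when they reached 10 CPM (counts per 1000000 reads, so 10000 CPM is 1% of a library) in at least 2 of these 6 libraries, which took 378 of the 2505 barcodes in the table. The other libraries were bone marrow and spleen of 3 Ptprca mice and 1 baseline library of haematopoietic progenitors. All mice had received MLL-AF9 leukaemia cells. Per the labels, c-Kit positive progenitors were grown with IL-3, IL-6 and SCF and transduced with SPLINTR barcode libraries, and viable cells were sorted before lysis. Each mouse is a separate animal, so the spread is between animals. The labels give neither the age of the mice nor how many cells were sorted, and the barcode sequences are not analysed here, so barcodes are given by name.

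MLL-AF9 joins the chromatin regulator KMT2A to AF9 and drives an aggressive myeloid leukaemia that fills the bone marrow and enlarges the spleen in transplanted mice. A DNA barcode integrated in a progenitor is copied to all of its descendants, so the share of a barcode reports how much of a leukaemic population stems from that founder. NSG mice lack T, B and natural killer cells and have impaired cytokine signalling in their remaining innate cells. Bone marrow is where transplanted leukaemia usually settles, while the spleen is a secondary site that cells reach through the blood.

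Shares within a library sum to 100%, so a lower share of a barcode cannot be told apart from more cells of another barcode. Each spleen was read less deeply than the bone marrow of the same mouse, with 2640788, 3225751 and 3821789 reads in the spleens of mice 4, 5 and 6 and 4473491, 4515084 and 5201858 in the bone marrows, each total the sum of 2 technical repeats of a split lysate, and the values under 60 CPM have the form of a mean over both repeats, which the labels do not state. In the less deeply read repeat, 3 reads were worth between 0.613 and 1.2 CPM, taken as the detection floor, which covers counting error only because PCR reads are not independent molecules. Repeats of the spleens differed more than repeats of the bone marrows. For barcodes between 100 and 1000 CPM and seen in both repeats, the log2 ratio of the repeats had an SD of 0.55, 0.59 and 0.50 in the bone marrows of mice 4, 5 and 6, and 2.26, 1.57 and 1.71 in their spleens. Between 1000 and 10000 CPM these SDs were 0.21, 0.22 and 0.29 in bone marrow and 0.64, 0.56 and 0.52 in spleen, and each barcode resolved in that range was seen in both repeats.

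Of the 660 barcodes above 0 in any of the 6 libraries, the 378 held 97.5% to 99.8% of each library. They did not enter evenly from both organs. The limit was met in 2 or more libraries of each organ by 162 barcodes, in 2 or more bone marrows but fewer than 2 spleens by 128, in 2 or more spleens but fewer than 2 bone marrows by 16, and through 1 library of each organ by 72. All 6 libraries were at 10 CPM or more for 86 barcodes, and 5 barcodes were at 0 at baseline. The 128 were under 10 CPM in at least 2 spleens by the way they entered, so counts of directions over the 378 are descriptions. Just inside the limit, GFP_Barcode_9310 had a second-highest value of 11.3 CPM, and just outside it GFP_Barcode_7893 had 9.80 CPM.

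The spleens of NSG mice were dominated by fewer clones than their bone marrows. In mouse 4 the effective number of barcodes, the exponential of the Shannon entropy, was 43.8 in bone marrow and 5.24 in spleen. In mouse 5 it was 41.4 and 25.7, and in mouse 6 it was 41.5 and 9.78. The bone marrows lay close together while the spleens ranged widely, and the values of the organs did not overlap. The 10 largest barcodes together held 55.5%, 59.3% and 60.9% of the bone marrows of mice 4, 5 and 6, and 88.0%, 70.7% and 82.4% of their spleens.

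The same pattern appeared at other depths of the distribution. The number of barcodes needed to make up 50% of a library was 8, 6 and 7 in bone marrow of mice 4, 5 and 6 and 1, 4 and 1 in spleen. The number needed for 90% was 64, 69 and 65 in bone marrow and 13, 43 and 24 in spleen. Barcodes at 1000 CPM or more numbered 96, 99 and 96 in bone marrow, a narrow range, and 37, 79 and 57 in spleen. Mouse 5 had the most even spleen by each of these counts.

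The mean within-mouse difference in effective number was -28.7 (SD 11.7, n = 3), and it was negative in 3 of 3 mice. The other 6 measures tested also had 1 direction in all 3 mice, and each gave an exact two-sided sign-flip permutation p of 0.25 (adjusted p = 0.25 over the 7 measures), the smallest that 3 pairs allow. Without pairing, the exact permutation test of 3 against 3 libraries gave 0.1 for each, again its smallest value. The difference does not rest on the largest clone alone. With GFP_Barcode_52804 left out and the rest rescaled, the effective numbers were 68.4, 53.8 and 52.7 in the bone marrows of mice 4, 5 and 6 and 35.9, 34.3 and 27.4 in the spleens, still without overlap.

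GFP_Barcode_52804 was the largest clone in all 6 libraries. It held 23.4%, 18.7% and 17.9% of the bone marrows of mice 4, 5 and 6, and 70.7%, 23.7% and 52.0% of their spleens. Every spleen was above every bone marrow, although mouse 5 differed little between organs. The spleen to bone marrow ratio was 3.01, 1.27 and 2.91 in mice 4, 5 and 6. On the log2(CPM + 1) scale the difference was 1.16 (SE 0.43), which did not pass in limma (adjusted p = 0.379). This clone made up 0.0560% of the baseline library.

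Behind it, the large bone marrow clones took smaller shares of the spleen in most animals. They were picked for a high mean in bone marrow, a choice that favours this direction. GFP_Barcode_98919 held 4.78%, 2.45% and 4.58% of the bone marrows of mice 4, 5 and 6 and 0.764%, 0.687% and 1.65% of the spleens. Here the organs did not overlap, and bone marrow exceeded spleen 6.25-fold, 3.57-fold and 2.78-fold. GFP_Barcode_3138 held 0.729%, 2.33% and 4.06% of the bone marrows and 0.137%, 0.485% and 0.167% of the spleens. It was 5.30, 4.81 and 24.3 times higher in bone marrow, again without overlap, and both repeats of each spleen gave similar values, such as 4083 and 5617 CPM in mouse 5. GFP_Barcode_27920 held 2.30%, 2.18% and 3.59% of bone marrow and 0.0850%, 1.11% and 1.30% of spleen, lower in each spleen.

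Other leading bone marrow clones were low in some spleens and not in others. GFP_Barcode_22403 held 4.34%, 4.15% and 12.9% of the bone marrows of mice 4, 5 and 6 and 0.0726%, 4.43% and 1.11% of the spleens. Its spleen share was thus a small part of the bone marrow share in mouse 4 and about equal to it in mouse 5. GFP_Barcode_18532 behaved alike, at 4.13%, 15.8% and 2.83% of bone marrow and 0.255%, 18.4% and 0.773% of spleen. GFP_Barcode_69276 went the other way, at 4.28%, 6.45% and 6.39% of bone marrow and 4.88%, 0.774% and 2.54% of spleen, so that mouse 4 had the higher spleen value.

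None of these differences passed the test. On the log2(CPM + 1) scale they were -1.98 for GFP_Barcode_98919, -3.09 for GFP_Barcode_3138, -2.40 for GFP_Barcode_27920, -3.12 for GFP_Barcode_22403, -1.89 for GFP_Barcode_18532 and -1.40 for GFP_Barcode_69276, with limma adjusted p of 0.379 to 0.511. With centred log-ratios, which refer each barcode to the mean over all tested barcodes, GFP_Barcode_98919, GFP_Barcode_18532 and GFP_Barcode_69276 had differences above 0, at 0.011, 0.11 and 0.60. Without mouse 5, GFP_Barcode_22403 differed by -4.72 and passed (limma adjusted p = 0.00509).

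Several clones that led a spleen did so in a single animal. They were picked for a high mean in spleen, a choice that favours a clone high in 1 spleen. GFP_Barcode_52357 held 15.6% of the spleen of mouse 6, against 1.42% and 1.11% in mice 4 and 5, and 2.14%, 1.74% and 3.20% of the bone marrows of mice 4, 5 and 6. GFP_Barcode_117983 held 5.89% of the spleen of mouse 5 and 0.251% in mouse 6, and in mouse 4 it was at 0.799 CPM, under that library's floor of 1.2 CPM. Its bone marrow shares were 0.241%, 0.353% and 0.0376%, so the spleen exceeded the marrow 16.7-fold in mouse 5 and 6.69-fold in mouse 6 and was far below it in mouse 4.

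Mouse 5 held most of these high spleen shares. GFP_Barcode_52804 left more of that spleen to other barcodes, at 23.7% against 70.7% and 52.0% in mice 4 and 6. GFP_Barcode_22615 held 4.40% of the spleen of mouse 5 and 0.0232% and 0.152% of the spleens of mice 4 and 6. GFP_Barcode_44971 held 4.14% there and 0.867% and 0.138% in mice 4 and 6. GFP_Barcode_44771 held 4.32% there and 0.0403% and 0.462% in mice 4 and 6. All 3 were at 1.10% or less of the bone marrow of mouse 5. In contrast, GFP_Barcode_101924 held 2.48% and 2.51% of the spleens of mice 4 and 5 and 0.0760% in mouse 6, although mouse 6 had its highest bone marrow share, at 3.19%.

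Dominance, set at 1% of a library, was reached by 38 barcodes in at least 1 of the 6 libraries, of which 37 were among the 378. The exception was GFP_Barcode_14829, at 1.33% of the bone marrow of mouse 4 and 0 in the other 5 libraries. At least 1 bone marrow was dominated by 31 barcodes and at least 1 spleen by 23, with 16 in common. Of the 31, 7 reached 1% in all 3 bone marrows, 8 in exactly 2 and 16 in exactly 1. Of the 23, 2 reached it in all 3 spleens, 4 in exactly 2 and 17 in exactly 1. The barcodes common to all 3 spleens were GFP_Barcode_52804 and GFP_Barcode_52357, and both were also at 1% in all 3 bone marrows.

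Within a mouse, dominance carried over from bone marrow to spleen for 5 of 19 barcodes in mouse 4, 7 of 17 in mouse 5 and 7 of 17 in mouse 6. Apart from GFP_Barcode_52804, the barcodes dominant in bone marrow made up 44.8%, 49.4% and 51.8% of the bone marrows of mice 4, 5 and 6 and 13.4%, 34.5% and 28.2% of their spleens. Barcodes dominant in spleen alone numbered 3, 6 and 3. Those 6 of mouse 5 held 19.3% of its spleen and 2.54% of its bone marrow. Those of mouse 4 held 5.39% and 0.192%, and those of mouse 6 held 4.38% and 1.65%.

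A further set of clones was present in all 3 bone marrows and nearly missing from the spleens. GFP_Barcode_9344 held 0.641%, 0.642% and 0.156% of the bone marrows of mice 4, 5 and 6, and was at 0 in the spleens of mice 4 and 6. In the spleen of mouse 5 it was at 79.7 CPM, from 259 reads in 1 repeat and 0 in the other. GFP_Barcode_2189 held 0.794%, 0.627% and 0.321% of the bone marrows, and 304 CPM, 0 and 58.8 CPM of the spleens. For both barcodes every spleen was below every bone marrow.

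GFP_Barcode_14177 was nearly constant in bone marrow, at 0.162%, 0.169% and 0.149%, and was at 85.2 CPM, 0 and 1.01 CPM in the spleens of mice 4, 5 and 6. GFP_Barcode_15540 was at 0.345%, 0.307% and 0.285% of bone marrow and at 248 CPM, 0 and 11.7 CPM in spleen. GFP_Barcode_63779 was at 1033, 42.0 and 882 CPM in bone marrow and at 0, 0 and 6.80 CPM in spleen, the last from 25 reads of 1 repeat. These spleen values lie in the range where repeats differed most, and the part of repeat noise in the organ differences was not tested.

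All 5 were lower in spleen in 3 of 3 mice, but 1 direction in all mice was a condition for naming them, so this is no result. GFP_Barcode_15540 and GFP_Barcode_2189, which reached 10 CPM in 2 spleens, differed by -7.73 (SE 2.09) and -7.69 (SE 2.08) on the log2(CPM + 1) scale, and neither passed (limma adjusted p = 0.379 for both). GFP_Barcode_9344, GFP_Barcode_14177 and GFP_Barcode_63779 entered through the bone marrows, with fewer than 2 spleens at 10 CPM, so their differences of -9.85, -8.16 and -7.42 are descriptions. Because spleens at or near 0 enter these values, the pseudocount sets their size. With a pseudocount of 10 CPM and of 0.1 CPM, the difference was -7.59 and -12.07 for GFP_Barcode_9344, -6.20 and -9.56 for GFP_Barcode_14177, and -4.94 and -9.68 for GFP_Barcode_63779. For GFP_Barcode_15540 it was -6.35 and -8.87, and for GFP_Barcode_2189 -6.50 and -8.80. With the mouse as a random effect GFP_Barcode_2189 passed (limma adjusted p = 0.0334), and over all settings run its adjusted p ran up to 0.698. GFP_Barcode_9344 was also called in that setting and with the spread taken from all 12 disease libraries, which is no independent support given how it entered.

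Over all barcodes, limma with the mouse as a block called 0 of 378 at a Benjamini-Hochberg adjusted p of 0.05 (percent called 0), with 41 at an unadjusted p under 0.05 (10.8%). With 3 mice and the spread of these libraries the test could miss large changes. In simulated data with that spread, none of 20 planted changes was called at each log2 size of 2, 4 and 6. Those data were drawn without a mouse effect, while the real organs of 1 animal correlated at 0.241 to 0.313. The simulation may therefore understate what the paired test can find. The lack of calls therefore does not show that barcodes had equal shares in both organs. Of these 41, 40 were lower in spleen (10.6% of the 378) and 1, GFP_Barcode_52804, was higher (0.265%). Without the block the count was also 0, with 35 at an unadjusted p under 0.05. The estimate was below 0 for 300 barcodes and above 0 for 78, with a median of -1.61. This balance depends on the scaling. With centred log-ratios the median moved to 0.39, with 166 below and 212 above 0, and without the largest clone it was -1.27, with 268 below and 109 above. With centred log-ratios, 10 barcodes had an unadjusted p under 0.05, 5 in each direction.

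In CPM, all 3 spleens lay below all 3 bone marrows for 53 of the 378 barcodes (14.0%) and above them for 2 (0.529%). The 2 were GFP_Barcode_52804 and GFP_Barcode_44375, which was at 0.0919%, 0.0880% and 0.0909% of the spleens of mice 4, 5 and 6 and at 0.0496%, 0.0706% and 0.0172% of the bone marrows. Taken mouse by mouse, 88 barcodes (23.3%) were lower in spleen in all 3 animals and 6 (1.59%) were higher. Among the 187 barcodes that reached 1000 CPM in any of the 6 libraries, 56 were lower in all 3, 3 were higher in all 3 and 128 were mixed. More barcodes reached 1000 CPM in each bone marrow than in any spleen, a choice that favours the lower direction.

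The 3 higher ones were GFP_Barcode_52804, GFP_Barcode_36463 and GFP_Barcode_38818. GFP_Barcode_36463 held 0.201%, 0.203% and 0.253% of the bone marrows of mice 4, 5 and 6 and 0.222%, 0.683% and 0.348% of the spleens. The organs overlapped, and only mouse 5 differed by much, at 3.37-fold. GFP_Barcode_38818 kept almost the same share in both organs of each animal, at 0.549% and 0.592% in mouse 4, 0.297% and 0.307% in mouse 5, and 0.0808% and 0.0984% in mouse 6. Their log2 differences were 0.78 and 0.15, with limma adjusted p of 0.823 and 0.980.

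Values of 0 in the spleen were common even among sizeable bone marrow clones. The spleens were also the less deeply read libraries, and of barcodes between 10 and 100 CPM only 53.2%, 27.9% and 45.8% were seen in both repeats of the spleens of mice 4, 5 and 6, against 79.4%, 94.8% and 87.8% in bone marrow. The part of depth and repeat noise in the values of 0 was not tested. Of the 96, 99 and 96 barcodes at 1000 CPM or more in the bone marrows of mice 4, 5 and 6, 14, 18 and 12 were at 0 in the spleen of the same animal. Of those with 100 to 1000 CPM in bone marrow, 56 of 108, 47 of 125 and 35 of 113 were at 0. Even barcodes at 1% or more could be missing. GFP_Barcode_585 and GFP_Barcode_14829 held 1.01% and 1.33% of the bone marrow of mouse 4, GFP_Barcode_9130 held 1.31% of that of mouse 6, and each was at 0 in the spleen. GFP_Barcode_43269 held 3.50% of the bone marrow of mouse 5 and was at 9.03 CPM in its spleen. The reverse was rarer. Of the 37, 79 and 57 barcodes at 1000 CPM or more in spleen, 1, 0 and 2 were at 0 in bone marrow.

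All 3 spleens were at 0 for 27 of the 378 barcodes, and all 3 bone marrows for 1. The most abundant of the 27 by mean bone marrow value was GFP_Barcode_9130, which owed its mean to mouse 6. GFP_Barcode_24075 was above 0 in each bone marrow, at 30.0, 180 and 54.1 CPM in mice 4, 5 and 6. Against a mean floor of 0.984 CPM in the spleens, its mean was 89.4-fold higher in bone marrow. That floor covers counting error and not repeat noise, so the ratio is no lower bound. Since the barcode entered through bone marrow alone, the ratio is a description.

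Some of the barcodes kept a nearly fixed ratio to another barcode across libraries. Barcodes were compared in pairs over the libraries in which both reached 100 CPM, at least 5 of the 13. The 197 barcodes form 19306 pairs, which include pairs that shared fewer than 5 such libraries and could not qualify. Of all these pairs, 24 kept a ratio with an SD of 0.5 or less on the log2 scale, and 18 of the 24 did so while both barcodes varied by 3 or more. These limits were chosen after the data were seen. GFP_Barcode_69276 was 7.92 times GFP_Barcode_7083 (SD of log2 0.18) in all 13 libraries. GFP_Barcode_113643 was 2.98 times GFP_Barcode_38818 (SD 0.16) in 9 libraries, and so also nearly level between organs, at 1.89%, 0.874% and 0.252% of bone marrow and 1.44%, 0.848% and 0.307% of spleen in mice 4, 5 and 6. GFP_Barcode_15540 was 2.01 times GFP_Barcode_14177 (SD 0.11) in 5 libraries. None of those 5 was an NSG spleen, where GFP_Barcode_14177 stayed under 100 CPM, so their ratio there is not described by this value.

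Bone marrows resembled one another more than most spleens did, a difference that was not tested. Similarity (1 minus Bray-Curtis distance, computed on shares) was 0.603 between the bone marrows of mice 4 and 5, 0.626 between mice 4 and 6 and 0.624 between mice 5 and 6. Between spleens it was 0.365, 0.622 and 0.378 for the same pairs, and the value of mice 4 and 6 was as high as between bone marrows. Without GFP_Barcode_52804 it was 0.248, 0.274 and 0.239 between spleens and 0.524, 0.566 and 0.545 between bone marrows. The organs of 1 animal had a similarity of 0.420, 0.602 and 0.418 in mice 4, 5 and 6, which exceeded the mean over organs of different animals by 0.0479 (exact one-sided permutation p = 0.167 over 6 matchings, the smallest they allow). Without mouse 5 the excess was 0.00915, and without mouse 4 it was 0.0822. The spleen of mouse 5 was closer to the bone marrow of mouse 4 (0.566) than the spleen of mouse 4 was.

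Whether the organ difference of NSG mice differed from that of Ptprca mice, an immunocompetent strain, was tested on the within-mouse differences. The count of barcodes reaching 10 CPM gave spleen minus bone marrow differences of -114, -97 and -82 in NSG mice 4, 5 and 6 and -15, -4 and 8 in Ptprca mice 1, 2 and 3. The strains did not overlap (difference -94.0, exact two-sided permutation p = 0.1, the smallest possible; adjusted p = 0.175 over 7 measures). The bone marrow of Ptprca mouse 3 had only 170453 reads in 1 repeat, against 2314066 in the other. Its floor of 8.80 CPM was close to the limit of 10 CPM. Without that mouse the difference was -88.2. For barcodes at 1% or more the differences were -11, -4 and -7 in NSG and -14, -16 and -18 in Ptprca mice, also without overlap (exact permutation p = 0.1, adjusted p = 0.175). The effective number was also lower in all 3 Ptprca spleens, by a mean difference of -47.1 against -28.7 in NSG mice (exact permutation p = 0.1, adjusted p = 0.175). That difference depends on the scale. As a ratio of bone marrow to spleen, the effective number gave 8.36, 1.61 and 4.24 in NSG mice 4, 5 and 6 and 3.75, 2.93 and 4.09 in Ptprca mice 1, 2 and 3, so the strains overlapped and 2 NSG mice lay above all Ptprca mice. For barcodes that hold 90% of a library the differences averaged -39.3 in NSG and -39.7 in Ptprca mice (exact permutation p = 1).

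Barcodes at 1000 CPM or more in 1 organ stayed under 10 CPM in the other more often in NSG than in Ptprca mice. This held in both directions. Of the barcodes at 1000 CPM or more in bone marrow, 81.2%, 79.8% and 84.4% reached 10 CPM in the spleens of NSG mice 4, 5 and 6, against 100%, 100% and 99.0% in Ptprca mice 1, 2 and 3. The difference in means was -17.9 percentage points (exact two-sided permutation p = 0.1, adjusted p = 0.1 over the directions from each organ), for a measure added after the data were seen. In the other direction, 93.6% of spleen barcodes at 1000 CPM or more reached 10 CPM in bone marrow in NSG mice, against 99.5% in Ptprca mice (means, n = 3 each), a difference of -5.89 percentage points with the same exact permutation p of 0.1. The NSG spleens were also read less deeply and had noisier repeats than the Ptprca spleens. The NSG spleens had 2640788 to 3821789 reads and the Ptprca spleens 5091049 to 5252942, and between 100 and 1000 CPM the SD over repeats was 0.30, 0.33 and 0.39 in the spleens of Ptprca mice 1, 2 and 3, against 1.57 to 2.26 in NSG. In bone marrow the strains overlapped in depth, at 4473491, 4515084 and 5201858 reads in NSG and 5178120, 4219925 and 2484519 in Ptprca mice. Between 100 and 1000 CPM the SD over repeats there was 0.50 to 0.59 in NSG and 0.35 to 0.46 in Ptprca mice. The part of depth and repeat noise in the differences between strains, and in that of barcodes at 10 CPM, was not tested. No repeat of an NSG spleen missed a barcode resolved at 1000 to 10000 CPM, out of 29, 66 and 47 in mice 4, 5 and 6, while 14 of 93, 17 of 96 and 10 of 101 between 100 and 1000 CPM were seen in 1 repeat alone. In the Ptprca spleens 0 of 86, 0 of 78 and 0 of 82 were.

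Per barcode, the difference between strains in the organ contrast passed for 0 of 471 barcodes at 10 CPM in at least 2 libraries of either strain (percent called 0, with 33 at an unadjusted p under 0.05, limma). GFP_Barcode_9344 had an interaction of -10.44 on the log2 scale (SE 2.12, limma adjusted p = 0.302). It entered the NSG comparison through the bone marrows, with fewer than 2 spleens at 10 CPM, so this value is a description. GFP_Barcode_98919, lower in all 3 NSG spleens, averaged 2.74% ± 1.56 in the bone marrows and 9.74% ± 5.96 in the spleens of Ptprca mice (SD, n = 3 each), with an interaction of -3.77 (limma adjusted p = 0.453). GFP_Barcode_52804 was at 0.266% ± 0.00355 and 0.287% ± 0.0919 there (SD, n = 3 each), with an interaction of 1.10 (SE 0.77, limma adjusted p = 0.704).

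Barcodes that were common at baseline tended to be common in both organs. Across the 378 barcodes, Spearman's rho with baseline CPM was 0.372, 0.328 and 0.428 in the bone marrows of mice 4, 5 and 6 and 0.256, 0.286 and 0.417 in the spleens, a description over barcodes of shared libraries. By starting share, the 199 barcodes with 100 to 1000 CPM at baseline, GFP_Barcode_52804 among them, held 65.8%, 43.9% and 50.1% of the bone marrows and 82.8%, 43.2% and 86.5% of the spleens. The 91 barcodes at 1000 CPM or more at baseline held 29.2%, 47.3% and 47.4% of the bone marrows and 14.0%, 48.6% and 11.8% of the spleens. The abundant starters thus had the lower share in spleen in mice 4 and 6, and nearly equal shares of both organs in mouse 5. GFP_Barcode_52804 alone held 70.7% and 52.0% of the spleens of mice 4 and 6, against 23.4% and 17.9% of the bone marrows. These shares were not rescaled without it, so the lower share of the abundant starters cannot be told apart from its larger share.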

How the data were processed

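Libraries were grouped by the titles' strain, organ and mouse number. The authors deposited 1 table of CPM values per barcode and library, each library summing to 1000000. Bowtie 1.2.2 and R 3.6 are named, per the submitters' processing notes, with settings not given in the sources used here. Each of the 2183 distinct values under 60 CPM fitted whole reads in 2 repeats of different depth, so repeat reads could be worked out below 10000 CPM, with 30 values of the bone marrow of mouse 6 unresolved. Larger values could not be, which left the test on the CPM scale. Barcodes at 10 CPM in at least 2 of 6 libraries were tested with limma 3.58.1 (R 4.3.3) on log2(CPM + 1), which understates changes of low barcodes, with the mouse as a block and a variance trend. On simulated data without a mouse effect, the fit called planted changes at a small spread and none at the observed one. Organs of 1 number come from 1 animal; their deviations from group means correlated at 0.241 to 0.313. Named were the 10 barcodes with the highest mean in each organ and up to 5 per direction with the smallest p, the same direction in all mice and 1000 CPM; GFP_Barcode_44375, GFP_Barcode_113643, GFP_Barcode_7083, GFP_Barcode_24075 and those singled out by small counts were chosen after their values were seen. Members and lists were chosen with earlier results of these data known. Python 3.11.15 was used.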

Additional observations from a re-analysis of the deposited data

Results flagged for a closer look

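GFP_Barcode_14177 was lower in spleen in all 3 NSG mice and higher in spleen in all 3 Ptprca mice. Its spleen minus bone marrow differences on the log2(CPM + 1) scale were -4.23, -10.72 and -9.54 in NSG mice 4, 5 and 6 and 2.85, 3.10 and 0.33 in Ptprca mice 1, 2 and 3. The limma interaction was -10.25 (SE 2.24, adjusted p = 0.302) and did not pass. GFP_Barcode_14177 entered the NSG comparison through the bone marrows, with fewer than 2 spleens at 10 CPM, so this interaction is a description. In Ptprca mouse 3, the log2 ratio of repeats between 10 and 100 CPM had an SD of 1.09 in both organs, above the difference of 0.33 there. GFP_Barcode_15540 had the same directions, at -3.80, -11.58 and -7.81 against 2.36, 2.82 and 0.70, with an interaction of -9.69 (SE 2.24, limma adjusted p = 0.302). The 2 barcodes kept a nearly fixed ratio in 5 libraries, none an NSG spleen (SD of log2 0.11), so they are not counted as separate results. Both were named for a small p and 1 direction in NSG mice. In Ptprca mice both were rare, GFP_Barcode_14177 at 0.00345% ± 0.000428 of bone marrow and 0.0203% ± 0.0150 of spleen (SD, n = 3 each).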

How the results depend on the processing

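With the replicate block replaced by the mouse as a random effect, 2 of 378 barcodes passed in NSG mice, GFP_Barcode_2189 and GFP_Barcode_9344. With the spread from 12 libraries 2 of 378 passed, GFP_Barcode_24075 and GFP_Barcode_9344, and both had entered through the bone marrows. Without pairing (no replicate block) the count was 0, as in each setting other than the 2 settings above, except that leaving out a mouse gave 0 to 1. The interaction count of 0 of 471 became 0 to 5 with a mouse left out, 5 without mouse 5 and 4 without mouse 6. Of these, GFP_Barcode_24075, GFP_Barcode_4355, GFP_Barcode_1447, GFP_Barcode_22448 and GFP_Barcode_8488 were at 0 in all 3 NSG spleens. Calls of barcodes that entered through bone marrow are no independent support. The organ difference of all 7 measures in NSG mice kept its direction in every setting run, and the effective number ran from -9.61 (inverse Simpson index) to -35.1 (without mouse 5). Between strains, the share of the largest barcode went from 8.22 to -10.1 percentage points without the most abundant barcode and ran from -0.991 to 20.1 with a mouse left out. With a mouse left out, barcodes at 1000 CPM or more ran from -8.67 to 10.8 and barcodes that hold 90% from -6.33 to 6.17. The similarity excess of organs of 1 animal ran from 0.00915 to 0.0822 with a mouse left out. Among 20 named barcodes, 11 kept their direction throughout. With centred log-ratios GFP_Barcode_18532 was at 0.11, GFP_Barcode_69276 at 0.60, GFP_Barcode_98919 at 0.011, GFP_Barcode_44771 was at 0.074, GFP_Barcode_101924 at 1.31, GFP_Barcode_117983 at 0.80 and GFP_Barcode_44971 at 1.90, from values below 0. Without the most abundant barcode, GFP_Barcode_101924 was at 0.065 and GFP_Barcode_44971 at 0.65. With the shallower repeat alone, GFP_Barcode_22615 was at -0.74 and GFP_Barcode_44971 at 0.010. With a mouse left out, GFP_Barcode_52357 ran from -0.62 to 0.85, GFP_Barcode_44771 from -3.87 to 0.58, GFP_Barcode_101924 from -2.34 to 1.67, GFP_Barcode_117983 from -3.82 to 3.40, GFP_Barcode_44971 from -1.89 to 1.43 and GFP_Barcode_22615 from -1.53 to 1.94. The cause was not tested. Repeat reads of barcodes at 1% or more could not be recovered, so repeats taken alone kept the mean there and were not run for the measures or for similarity.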
